A study of Homo sapiens with 12 samples.

Results

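AlkAniline-Seq libraries of LNCaP-AI cells carrying shMETTL1 were compared with the input libraries of the same knockdown, 3 against 3. All samples labelled shMETTL1 were taken, 6 of the 12 in the series, and no shscramble library entered a comparison. LNCaP-AI is a line derived from the human prostate cancer line LNCaP that was kept under androgen deprivation, and every sample of the series, control and knockdown, carried that treatment. The knockdown cells stably expressed a lentiviral short hairpin RNA against METTL1, so the group stands for a single hairpin and a single cell line. The labels do not say whether replicates 1 to 3 were separate cultures. The methods describe biological replicates for the study's data in general, without saying what they were for these libraries. P-values measure the spread between these libraries, and how far that spread is technical was not tested.

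The hairpin is shown because it alone defines the group. Capitals mark its 2 arms of 21 bases, which are complementary to each other, and the lower-case letters mark the loop of 4 bases.
shMETTL1 oligonucleotide: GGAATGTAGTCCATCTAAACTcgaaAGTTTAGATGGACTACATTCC

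METTL1 is the catalytic subunit of the methyltransferase that, with WDR4, places a methyl group on N7 of guanosine (m7G) inside tRNAs and some mRNAs. AlkAniline-Seq removes m7G bases by alkaline hydrolysis, cleaves the RNA at the abasic site with aniline and ligates an adapter to the 5′ end so released, so that reads begin next to the modified base. The chemistry also cuts at m3C, and an input library that was not enriched in this way gives the reads that begin at a position for other reasons.

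For each of 842183 positions, assigned to 18569 Ensembl gene IDs, the data give a count of reads at the position and a coverage, the reads that span it. They give no coordinates, so no sequence around a position can be shown. They give no gene symbols either, and METTL1 itself was not looked up, so the depth of the knockdown was not checked in these libraries. For 115 gene IDs a symbol was found through a list of 238 genes in the study's supplement, as described with the processing. The study took that list as genes changed in both mRNA and m7G between METTL1 knockdown and control cells. These same libraries were part of that choice, so counts over its genes are a description and no independent evidence of a direction. Of the markers of luminal prostate cells fixed here, only KLK2, which encodes an androgen-dependent secreted kallikrein, had a symbol. It was read in all 6 libraries, at 389, 513 and 379 CPM (reads scaled to the size of each library, so that libraries can be compared) in AlkAniline-Seq and 504, 477 and 366 CPM in input. In such bulk libraries, fewer cells of a type and less RNA per cell cannot be told apart.

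The AlkAniline-Seq libraries held fewer reads than the inputs, spread over fewer positions, and their deepest positions took a smaller part of the reads. The total count was 2512434, 2764417 and 2474464 in AlkAniline-Seq and 3258499, 3211338 and 2783709 in input. A read was found at 114828, 88115 and 97954 positions in AlkAniline-Seq. In input it was found at 311979, 153839 and 165105 positions. The input of replicate 1 stood apart with about as many positions as both other inputs together, at a total count close to that of replicate 2. The lowest input still lay above the highest AlkAniline-Seq library, so the groups did not overlap. The number of gene IDs with a read was 14155 ± 240 (SD, n = 3) in AlkAniline-Seq and 15396 ± 724 (SD, n = 3) in input, again without overlap. The 100 deepest positions of a library took 5.68%, 7.41% and 10.03% of its reads in AlkAniline-Seq. In input they took 12.6%, 15.2% and 14.3%. For each of these measures the exact two-sided permutation test gave p = 0.1, the smallest that 3 against 3 allows, and 0.14 after Benjamini-Hochberg adjustment over 7 library measures. Total coverage and the count as a percent of coverage overlapped between the groups (exact permutation test, p = 0.4 and p = 0.2), the latter at 6.54% ± 0.36 (SD, n = 3) in AlkAniline-Seq and 7.23% ± 0.47 (SD, n = 3) in input.

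**Figure D1:**
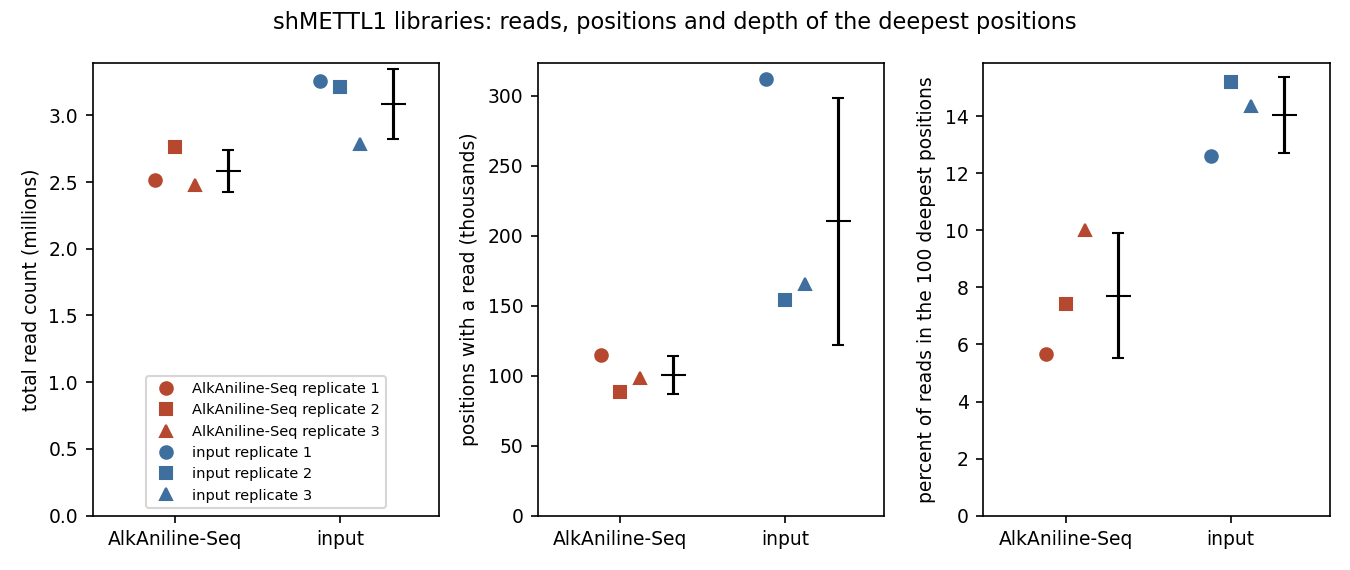
Total read count, positions with a read and the percent of reads in the 100 deepest positions, each on its own axis from 0, with a point for each shMETTL1 library and bars for the mean and SD of 3. The AlkAniline-Seq libraries lie below all inputs in each panel, and the input of replicate 1 has the most positions.

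Reads in AlkAniline-Seq were gathered at deep positions, but these differed from library to library. Positions with 50 or more reads held 70.6%, 88.1% and 79.8% of the reads in AlkAniline-Seq, against 38.4%, 62.0% and 51.1% in input. Where an AlkAniline-Seq library had 50 or more reads at a position, another AlkAniline-Seq library had a read there in 34.7% to 38.9% of cases, over 6 ordered pairs. The same positions had a read in an input library in 42.6% to 54.6% of cases, over 9 pairs, or 42.6% to 45.5% without the input of replicate 1. Deep positions of an input were found in another input in 64.8% to 95.5% of cases, and 64.8% to 75.8% where replicate 1 was left out. A deep AlkAniline-Seq position was thus found in any single input more often than in another AlkAniline-Seq library. Every input also had a read at more positions than any AlkAniline-Seq library, and the part of this in the difference was not tested. Gene totals followed a similar order, but the range within AlkAniline-Seq overlapped that between AlkAniline-Seq and input. Across 11506 gene IDs, Pearson's r of log2(CPM + 1) was 0.53 to 0.59 between AlkAniline-Seq libraries, 0.58 to 0.72 between AlkAniline-Seq and input, and 0.75 to 0.83 between inputs. Genes are not independent replicates, and these values describe the libraries only.

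Few positions were read in every AlkAniline-Seq library, and most of these were read in every input as well. The AlkAniline-Seq libraries together had reads at 243415 positions, of which 198806 (81.7%) belonged to 1 library and 12873 (5.29%) to all 3. Of these 12873, 8949 (69.5%) were also read in all 3 inputs and 629 (4.89%) in none. Without the input of replicate 1, 9238 (71.8%) were read in both other inputs and 1256 (9.76%) in neither. The 629 positions without an input read lay in 594 gene IDs, and 477 of them (75.8%) had a single read in their weakest AlkAniline-Seq library. Only 25 had 10 or more reads in every AlkAniline-Seq library. Among the 25, a pair of positions under different gene IDs was equal in every value. In the other direction, 35302 of 487400 positions (7.24%) were read in all 3 inputs. Of these, 8629 (24.4%) had no read in any AlkAniline-Seq library, and 596 had 10 or more reads in every input. Positions read throughout the inputs and without a read in AlkAniline-Seq were therefore more numerous than the reverse, 8629 against 629. The inputs had more reads and more positions. Coverage was 10 or more in all 3 AlkAniline-Seq libraries at 2004 of the 8629 (23.2%). It was 10 or more in all 3 inputs at 163 of the 629 (25.9%). Most positions of both kinds were thus thinly covered in at least 1 library of the other group. No test was run on these counts.

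**Figure D2:**
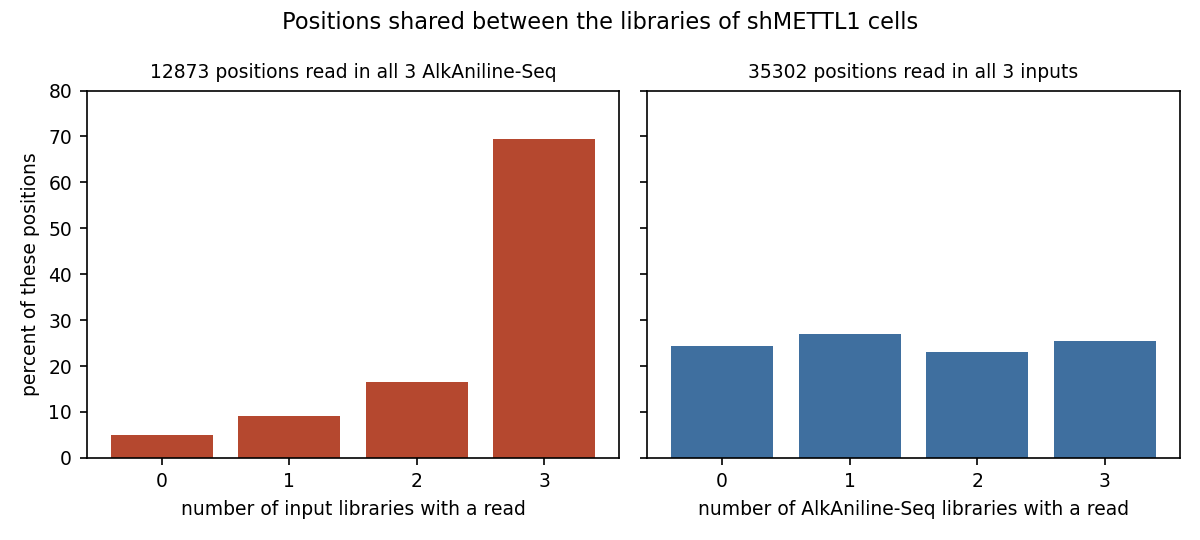
Left, the 12873 positions read in all 3 AlkAniline-Seq libraries, by the number of inputs with a read there. Right, the 35302 positions read in all 3 inputs, by the number of AlkAniline-Seq libraries. The vertical axis is the percent of these positions: 69.5% of the first set were read in every input, and 24.4% of the second set were read in no AlkAniline-Seq library.

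Reads summed over each gene ID were tested next, to ask which gene IDs differed in read counts between AlkAniline-Seq and input. Of 11506 gene IDs tested, 36 were higher in AlkAniline-Seq (0.313%) and 20 were lower (0.174%) at an adjusted p under 0.05 (edgeR's quasi-likelihood test, Benjamini-Hochberg). At an unadjusted p under 0.05 the shares were 5.21% higher and 4.47% lower. The log2 fold changes of the called gene IDs were 1.25 to 3.78 for the higher and -3.89 to -1.21 for the lower ones, beside a median of 0.16 over all tested. The ranges of CPM did not overlap between the groups for any of the 56 called gene IDs, nor for 2111 of all tested (18.3%). With reads taken as a share of coverage, as described below, none of the 56 passed in limma (lowest adjusted p = 0.404, for ENSG00000116670). The counts alone therefore do not separate more reads at positions from more coverage of the gene ID. Scaled by library size alone, the split was 26 higher and 22 lower. Without the input of replicate 1 the counts were 13 and 12, without that of replicate 2 they were 0 and 2, and without that of replicate 3 they were 0 and 2. Without AlkAniline-Seq replicate 1 they were 4 and 2, without replicate 2 they were 13 and 9, and without replicate 3 they were 25 and 25.

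Among the gene IDs without a symbol, 2 that were higher and 2 that were lower are given by ID. ENSG00000088179, with the highest log2 fold change of those called, had 592, 134 and 324 reads in AlkAniline-Seq and 28, 35 and 32 in input (log2 fold change 3.78, SE 0.71, edgeR adjusted p = 0.0387). Of the 592 reads, 479 lay at a single position that had 0 and 16 reads in the other AlkAniline-Seq libraries. ENSG00000180535 had 645, 985 and 816 reads in AlkAniline-Seq and 123, 82 and 50 in input (log2 fold change 3.64, SE 0.43, edgeR adjusted p = 0.00448). Here the same deepest position was read in every library, 251, 425 and 304 times in AlkAniline-Seq and 37, 34 and 16 times in input. With that position left out the log2 fold change was 3.72 (adjusted p = 0.014), so the reads beside it were higher too.

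The lowest of the called gene IDs, ENSG00000116670, had 9, 17 and 42 reads in AlkAniline-Seq and 427, 389 and 482 in input (log2 fold change -3.89, SE 0.74, edgeR adjusted p = 0.0397). ENSG00000008988 had the only position called in the test of single positions and is named for that reason, after its values were seen. Its position had 13428, 15599 and 19604 reads in AlkAniline-Seq and 87289, 70060 and 60976 in input, the deepest of every input. It was the 1 lower position of 16545 tested (0.00604%) in edgeR, with a log2 fold change of -1.64 (SE 0.15, adjusted p = 0.0047), and 0 were higher, while 647 higher and 2304 lower positions had an unadjusted p under 0.05. The position held 97.1% of the gene ID's reads. The gene ID itself was lower (log2 fold change -1.72, SE 0.19, adjusted p = 0.00447), and without the position its log2 fold change was 0.53 (adjusted p = 0.69).

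Among the called gene IDs, the lower ones had more of their reads at 1 position. The deepest position held a median of 62.9% of the reads in the 20 lower gene IDs (range 28.2% to 97.1%), 27.1% in the 36 higher ones and 22.5% in all tested. It held over 50% of the reads in 16 of the 20 lower, in 5 of the 36 higher, and in 8.08% of all tested. With the deepest position of each gene ID left out, 0 of the 20 lower gene IDs were called, 18 kept their sign, and their median log2 fold change moved from -1.71 to -0.71. ENSG00000116670, for example, moved from -3.89 to -2.93. Of the 36 higher gene IDs 7 were called, all 36 kept their sign, and the median moved from 2.15 to 2.09. Removing a gene's deepest position also takes away reads, and the part of that loss in these counts was not tested. The position was picked by reads summed over these same 6 libraries, which favours positions high in the group with more reads. Its removal is therefore no independent check of a call. Of the called gene IDs, 4 higher and 1 lower held positions that equalled, in every value, the next listed position under another gene ID, so their reads may be counted under more than 1 gene. The 4 higher ones form pairs with the same reads at the deepest position, and both members of a pair are counted in the 36. Of 31080 positions with 30 or more reads in all and a read in 4 or more libraries, 3032 (9.76%) equalled a neighbour in this way. The called gene IDs are thus not all distinct.

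**Figure D3:**
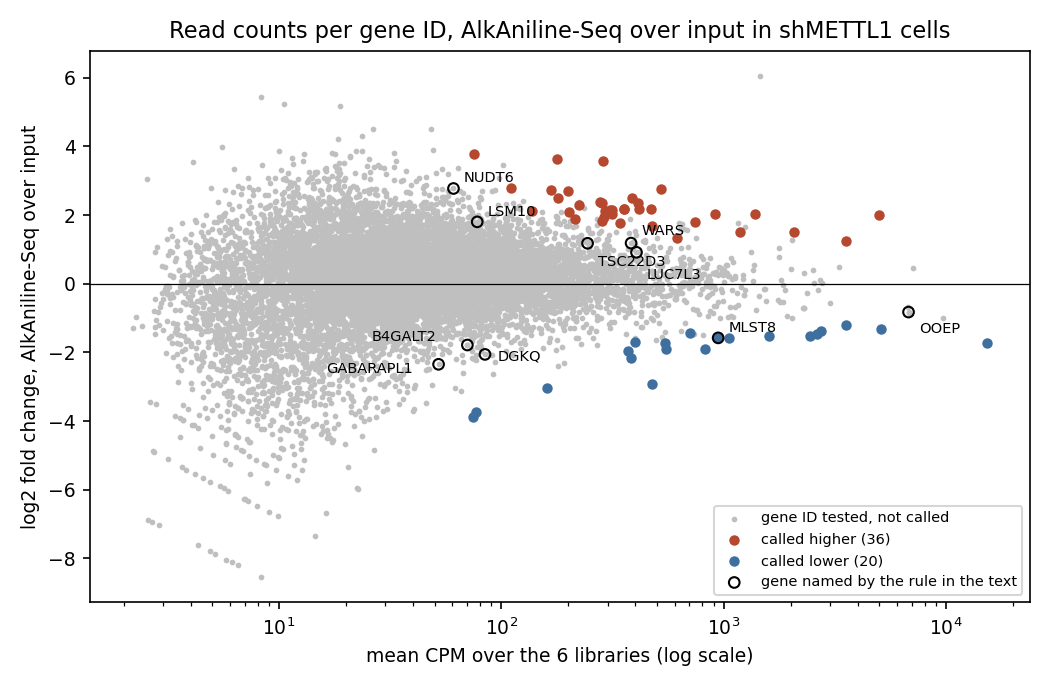
Log2 fold change of read counts, AlkAniline-Seq over input, against mean CPM over the 6 libraries (log axis) for 11506 gene IDs. The 36 gene IDs called higher and 20 called lower are coloured, and the genes named by rule, of which MLST8 alone passed, are ringed.

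Of the 113 genes with a symbol that were tested, 68 (60.2%) had a log2 fold change above 0, beside 56.5% of all gene IDs tested, and 45 below. The median of the 113 was 0.15, against 0.16 for all gene IDs. MLST8 was the only one called, with 0 higher and 1 lower. At an unadjusted p under 0.05, 7 (6.19%) were higher and 7 (6.19%) lower, near the 5.21% and 4.47% of all gene IDs.

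MLST8, a subunit shared by both mTOR kinase complexes, was lower in AlkAniline-Seq. It had 557, 519 and 344 CPM in AlkAniline-Seq and 1556, 1537 and 1143 CPM in input, so every AlkAniline-Seq library lay below every input (log2 fold change -1.58, SE 0.27, edgeR adjusted p = 0.0252). A single position held 76.7% of its reads, with 643, 683 and 561 reads in AlkAniline-Seq and 4771, 3983 and 2438 in input. With that position left out the log2 fold change was -0.0051 (adjusted p = 0.997), so the sum of the other positions showed no detectable difference. Single positions within that sum went both ways. One had 2, 0 and 1 reads in AlkAniline-Seq and 41, 203 and 228 in input, and another 1, 1 and 54 against 0, 0 and 0. Leaving out any 1 of the 6 libraries ended the call, with adjusted p-values of 0.0501 to 0.199.

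The other genes named by the rule did not pass the adjusted threshold. NUDT6, a Nudix hydrolase gene that overlaps FGF2 on the opposite strand, had 34.8, 166 and 118 CPM in AlkAniline-Seq and 21.6, 15.8 and 9.003 CPM in input (log2 fold change 2.77, SE 0.79, edgeR adjusted p = 0.187). The strand used in counting is not given in the sources used here, so its reads and those of FGF2 cannot be told apart. Its deepest position had 10, 225 and 0 reads in the AlkAniline-Seq libraries. DESeq2 called it higher (log2 fold change 2.82, adjusted p = 0.00748). WARS, the cytosolic tryptophanyl-tRNA synthetase, had 780, 337 and 476 CPM in AlkAniline-Seq and 251, 272 and 179 CPM in input (log2 fold change 1.18, SE 0.35, adjusted p = 0.209). TSC22D3, a leucine zipper protein induced by glucocorticoids, had 461, 217 and 336 CPM against 149, 142 and 157 CPM (log2 fold change 1.18, SE 0.35, adjusted p = 0.219). In all 3 genes every AlkAniline-Seq library lay above every input.
LUC7L3, a splicing factor bound to the U1 particle, had 400, 608 and 578 CPM in AlkAniline-Seq and 286, 264 and 291 CPM in input (log2 fold change 0.91, SE 0.28, adjusted p = 0.239). LSM10, a component of the U7 particle that trims histone mRNAs, had 82.2, 148 and 133 CPM against 54.3, 13.6 and 36.0 CPM (log2 fold change 1.80, SE 0.65, adjusted p = 0.324). Neither gene's groups overlapped.

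On the other side, OOEP, known as an oocyte gene, had 3140, 5195 and 6311 CPM in AlkAniline-Seq and 6223, 9620 and 10106 CPM in input, and the groups overlapped (log2 fold change -0.83, SE 0.27, edgeR adjusted p = 0.269). A single position held 81.9% of its reads, and without it the log2 fold change was 0.41. Without the filter on low counts the gene total was called lower (log2 fold change -0.84, edgeR adjusted p = 0.00135). Counted by positions with a read in place of reads, the gene was called higher (0.79, edgeR adjusted p = 0.0169), so its direction depended on what was counted. Its counts at that position, 5542, 8824 and 11535 in AlkAniline-Seq and 18793, 26339 and 24211 in input, differed by at most 6.47% from those at a position of another gene ID, so that reads may be shared with a near-identical copy and the gene's identity is uncertain. DGKQ, a diacylglycerol kinase, had 68.1, 11.1 and 18.6 CPM in AlkAniline-Seq and 81.0, 135 and 192 CPM in input (log2 fold change -2.06, SE 0.72, adjusted p = 0.313). B4GALT2, a galactosyltransferase, had 43.0, 38.1 and 13.5 CPM against 107, 95.9 and 124 CPM (log2 fold change -1.78, SE 0.65, adjusted p = 0.328). GABARAPL1, an ATG8 family protein of autophagy, had 21.9, 3.18 and 26.2 CPM against 59.1, 102 and 100.1 CPM (log2 fold change -2.35, SE 0.88, adjusted p = 0.352). In the last 3 genes the groups did not overlap.

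**Figure D4:**
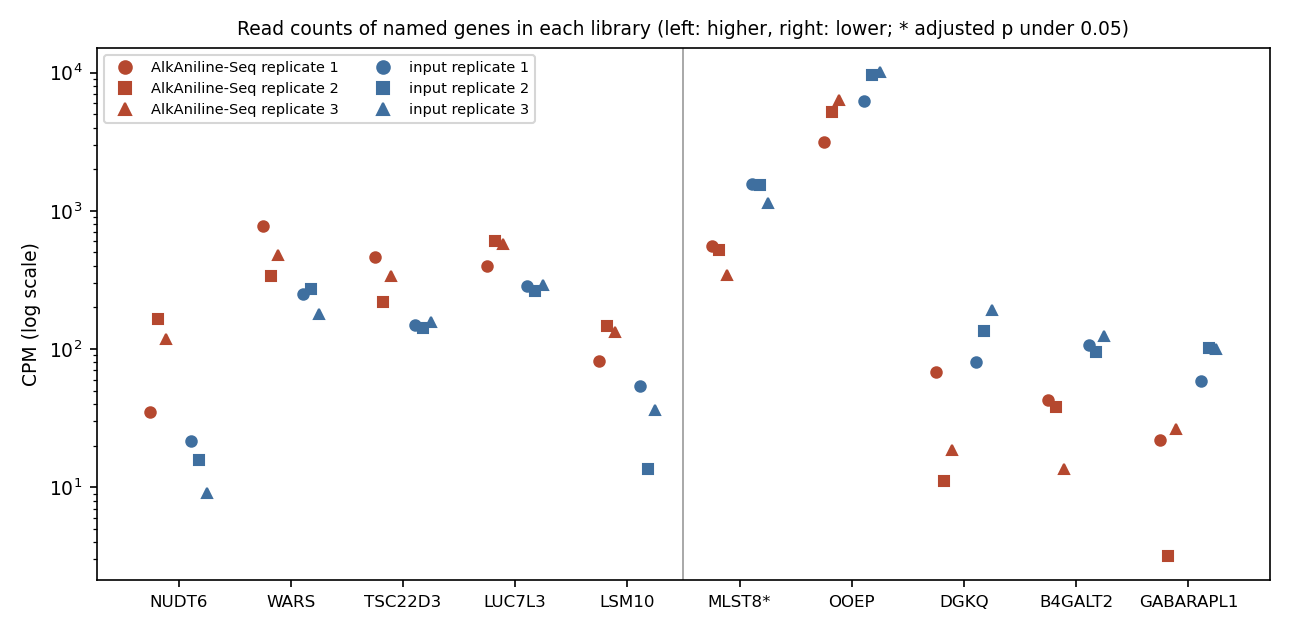
CPM (log axis) of the 10 genes named by rule in each library, AlkAniline-Seq in red and input in blue, with a symbol for each replicate. MLST8, marked with an asterisk, is the only one past the adjusted threshold, with AlkAniline-Seq at 344 to 557 CPM and input at 1143 to 1556 CPM.

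Gene groups defined by function, but chosen with earlier results of these data known, were then described, first those of amino acid supply. ATF4 is the transcription factor that raises amino acid transporters, amino acid synthesis enzymes and tRNA synthetases when amino acids run short. Of the ATF4 response list, 9 of 29 members had a symbol and 0 were called, with 6 above 0, 3 below and a median log2 fold change of 0.09 (0.16 over all gene IDs). SLC7A5, the light chain of the large neutral amino acid transporter, had the smallest p of them. It had 7218, 20879 and 19111 reads in AlkAniline-Seq and 19441, 56119 and 42320 in input (log2 fold change -1.004, SE 0.42, edgeR adjusted p = 0.44). Replicate 1 was the lowest of both groups. A single position held 82.1% of the gene's reads, and without it the log2 fold change was -0.14. SLC3A2, the heavy chain that pairs with SLC7A5, had 900.2, 834 and 587 CPM in AlkAniline-Seq and 664, 848 and 669.8 CPM in input, a log2 fold change of 0.09 (SE 0.26). GDF15, a stress-induced cytokine, had the smallest p above 0, with 862, 863 and 668 CPM against 718, 596 and 477 CPM (log2 fold change 0.42, SE 0.26, adjusted p = 0.688). PCK2, the mitochondrial phosphoenolpyruvate carboxykinase, had a log2 fold change of 0.31 (SE 0.25). ASNS, asparagine synthetase, had -0.55 (SE 0.38), and PSAT1, the transaminase of serine synthesis, 0.07 (SE 0.32). Of 20 cytosolic aminoacyl-tRNA synthetases, WARS, GARS and SARS had a symbol. All 3 were above 0, as were 56.5% of all gene IDs tested, and 0 were called. By share of coverage 1 was above 0 and 2 below. GARS and SARS, which charge glycine and serine tRNAs, had log2 fold changes of 0.28 (SE 0.28) and 0.33 (SE 0.33).

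Members of 7 other lists gave no call either. The 4 p53 targets with a symbol, of 20, were all above 0 with a median of 0.51, beside 56.5% of all gene IDs above 0. Of these targets, GDF15 and SESN2 are members of the ATF4 response list too. CDKN1A, the inhibitor of cyclin-dependent kinases known as p21, had 366, 388 and 319 CPM in AlkAniline-Seq and 258, 190.2 and 256 CPM in input (log2 fold change 0.61, SE 0.30, edgeR adjusted p = 0.552). PHLDA3, an AKT inhibitor induced by p53, had 130.3, 95.0 and 117 CPM against 52.9, 56.6 and 55.5 CPM (log2 fold change 1.05, SE 0.51, adjusted p = 0.547). The groups did not overlap in either gene, as in 18.3% of all gene IDs. The 4 cholesterol synthesis genes, of 22, had a median of 0.10, with 2 above 0 and 2 below. HMGCS1, the synthase that starts the pathway, had 234, 246 and 231 CPM against 140.1, 109 and 183 CPM (log2 fold change 0.72, SE 0.35, adjusted p = 0.553), while SQLE, squalene epoxidase, was at -0.20 (SE 0.52).
The 3 mitosis genes, of 28, were all below 0 with a median of -0.60. The median was -0.20 without AlkAniline-Seq replicate 1, -1.01 without AlkAniline-Seq replicate 2 and -0.30 without input replicate 2. PRC1, which bundles microtubules at the midzone, had 15.6, 58.8 and 94.8 CPM in AlkAniline-Seq and 148, 194 and 126 CPM in input (log2 fold change -1.47, SE 0.61, adjusted p = 0.43). Its deepest position held 53.3% of its reads, with 3, 1 and 103 in AlkAniline-Seq and 303, 327 and 273 in input. ANLN, a scaffold of the cytokinetic ring, and STMN1, a microtubule destabiliser, had log2 fold changes of -0.60 (SE 0.72) and -0.26 (SE 0.38). LIG1, the ligase of DNA replication and the single member of its list with a symbol, was at 0.76 (SE 0.72). Of 29 androgen receptor targets, 3 had a symbol, with a median of 0.09 and 0 called. KLK2 was at -0.07 (SE 0.28), and NDRG1 ranged from 6.26 to 98.1 CPM among the AlkAniline-Seq libraries alone. XBP1 and HERPUD1, which act in the response to unfolded proteins, were at 0.10 (SE 0.42) and -0.22 (SE 0.39). The other 14 of 23 lists had no member with a symbol.

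The count at a position was next set against the coverage there, which scales each position by the reads that span it. Of 68360 positions with a coverage of 10 or more in all 6 libraries, 15 had a higher share in AlkAniline-Seq (0.0219%) and 486 a lower one (0.711%), in limma on log2(share + 0.01) with an adjusted p under 0.05. The lower positions lay in 416 gene IDs and had a median share of 16.3% in input. Of these positions, 270 (55.6%) had 0 reads in all 3 AlkAniline-Seq libraries, so that group added no spread to the test there. Of the 15 higher positions, 8 had 0 reads in all 3 inputs, and the median share in AlkAniline-Seq was 32.3%. The median log2 difference was -0.37 over all positions tested. Of these, 7120 had 0 reads in all 6 libraries and so a difference of 0. Over the 61240 positions with a read the median was -0.52, with 17757 above 0 and 43483 below. The share of AlkAniline-Seq lay above every input at 553 positions (0.809%) and below every input at 5435 (7.95%). Neither direction passed the test when the replicate number was added as a block (0 and 0 positions), and leaving out 1 library gave 15 to 43 higher and 123 to 1673 lower. Summed per gene ID, the share was lower in 1 of 11171 gene IDs (0.00895%) and higher in 0 (limma), with 626 lower and 312 higher at an unadjusted p under 0.05.

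Among genes with a symbol, 2040 positions in 90 genes could be tested, and 8 (0.392%) were lower and 0 higher. All 8 lay in 6 genes of the ATF4 and synthetase lists, which held 688 of the tested positions. That is 1.16% of the positions in those lists, beside 0.711% of all positions. The lists were chosen with earlier results of these data known, and the symbols came from the study's own list. The share is therefore a description and no independent evidence. None of the other 1352 positions was called. Coverage decided how many positions of a gene could be tested, with 688 from these 12 genes, and its part in the count was not tested. None of the 8 positions equalled a neighbouring position under another gene ID. Intervals below are exact Clopper-Pearson 95% intervals and limits are 3 counts of the coverage. They cover counting error only, since reads without molecular identifiers are not independent molecules.

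The strongest of the 8 lay in SLC3A2. There 0 of 317, 0 of 195 and 0 of 136 covering reads began in AlkAniline-Seq, which allows shares of up to 0.946%, 1.54% and 2.21%. In input 112 of 379 (29.6%, interval 25.001% to 34.4%), 88 of 369 (23.8%, 19.6% to 28.5%) and 47 of 215 (21.9%, 16.5% to 28.0%) did. The difference on the log2(share + 0.01) scale was -4.69 (SE 0.13, limma adjusted p = 0.0034), and it passed without any 1 of the 6 libraries but not with the replicate number as a block (adjusted p = 0.297). With 0 reads in all 3, the AlkAniline-Seq values were a single constant, so they added no spread to the SE and p. The size depended on the constant added to the share, at -7.96 with 0.001 and -1.80 with 0.1. The lack of AlkAniline-Seq spread applies to the SLC7A5, PSAT1 and ASNS positions too. SLC7A5 had a position with 0 of 159, 0 of 254 and 0 of 187 in AlkAniline-Seq, which allows up to 1.89%, 1.18% and 1.604%. In input it had 28 of 182 (15.4%, 10.5% to 21.5%), 52 of 176 (29.5%, 22.9% to 36.9%) and 50 of 165 (30.3%, 23.4% to 37.9%), a difference of -4.65 (SE 0.29, limma adjusted p = 0.0166). Positions read in every input and in no AlkAniline-Seq library numbered 8629 in 4722 gene IDs. Of these, 2004 had a coverage of 10 or more in all 3 AlkAniline-Seq libraries.

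In PSAT1 the position with the larger difference had 0 of 502, 0 of 508 and 0 of 464 in AlkAniline-Seq, which allows up to 0.598%, 0.591% and 0.647%. In input it had 33 of 313 (10.5%, 7.37% to 14.5%), 54 of 369 (14.6%, 11.2% to 18.7%) and 45 of 418 (10.8%, 7.96% to 14.1%), a difference of -3.68 (SE 0.14, limma adjusted p = 0.00643). This position too passed without any 1 of the 6 libraries but not with the block (adjusted p = 0.309). ASNS had 0 of 611, 0 of 341 and 0 of 818 in AlkAniline-Seq, which allows up to 0.491%, 0.880% and 0.367%. In input it had 15 of 209 (7.18%, 4.07% to 11.6%), 53 of 367 (14.4%, 11.01% to 18.5%) and 90 of 466 (19.3%, 15.8% to 23.2%), a difference of -3.77 (SE 0.37, adjusted p = 0.0412). The gene totals of PSAT1 and SLC3A2 had log2 fold changes of 0.07 and 0.09 beside these differences in share.

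The synthetase genes GARS and WARS each had a position with a few reads left in AlkAniline-Seq. GARS had 0 of 352, 1 of 321 and 3 of 373, and in input 68 of 367 (18.5%, 14.7% to 22.9%), 240 of 488 (49.2%, 44.7% to 53.7%) and 148 of 470 (31.5%, 27.3% to 35.9%), a difference of -4.57 (SE 0.44, limma adjusted p = 0.0397). WARS had 1 of 95, 1 of 158 and 0 of 30, and in input 65 of 326 (19.9%, 15.7% to 24.7%), 114 of 634 (17.98%, 15.1% to 21.2%) and 80 of 434 (18.4%, 14.9% to 22.4%), a difference of -3.72 (SE 0.29, adjusted p = 0.0266). In WARS the share at this position was lower while every AlkAniline-Seq gene total lay above every input. The second positions of SLC3A2 and PSAT1 had input shares of 4.91% to 6.39% and of 2.74% to 3.67%, and differences of -2.69 (SE 0.12, adjusted p = 0.00974) and -2.02 (SE 0.11, adjusted p = 0.0128). All 8 positions kept a difference below 0 under every alternative in which they could be fitted. This sign was fixed in advance, since at each position every AlkAniline-Seq share lay below every input share. Without AlkAniline-Seq replicate 1, 2 or 3, 3, 2 and 4 of them passed, and without input replicate 1, 2 or 3, 7, 7 and 6 did. With a pseudocount of 0.1, 4 of the 8 passed, and 6 with 0.001. With the replicate number as a block 0 of the 8 passed, at adjusted p-values of 0.297 to 0.386.

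No position in a named gene had a higher share that passed. PCK2 came closest, with 63 of 635 (9.92%, 7.71% to 12.5%), 109 of 1049 (10.4%, 8.61% to 12.4%) and 31 of 514 (6.03%, 4.13% to 8.45%) in AlkAniline-Seq. In input it had 1 of 121 (0.826%, 0.0209% to 4.52%), 0 of 172 (up to 1.74%) and 0 of 168 (up to 1.79%), a difference of 2.97 (SE 0.35, limma adjusted p = 0.0629). A position in SARS had 11 of 134, 9 of 146 and 23 of 389 in AlkAniline-Seq against 9 of 473, 4 of 734 and 2 of 466 in input (difference 2.05, SE 0.33, adjusted p = 0.137). FN1, which encodes the matrix protein fibronectin, had 20 of 902, 28 of 675 and 19 of 163 against 0 of 203, 0 of 184 and 0 of 61 (difference 2.57, SE 0.55, adjusted p = 0.247). It was the only named gene among the 25 positions with 10 or more reads in every AlkAniline-Seq library and none in input. TSC22D3 had 71 of 883 (8.04%, 6.33% to 10.03%), 98 of 626 (15.7%, 12.9% to 18.7%) and 141 of 373 (37.8%, 32.9% to 42.9%) in AlkAniline-Seq against 0 of 64, 1 of 29 and 0 of 140 in input (difference 3.45, SE 0.88, adjusted p = 0.356). OOEP had a position at 1.92%, 1.08% and 1.44% against 0.623%, 0.243% and 0.384% (difference 0.80, SE 0.18, adjusted p = 0.263). The fold at this OOEP position is the one that tied the symbol, so its difference is no independent evidence. The shares themselves did not overlap between the groups at any of these 5 positions, but thin input coverage left wide limits. In FN1 the 0 of 61 allows up to 4.92%, and in TSC22D3 the 1 of 29 has an interval of 0.0873% to 17.8%. Both reach AlkAniline-Seq shares of the same position.

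**Figure D5:**
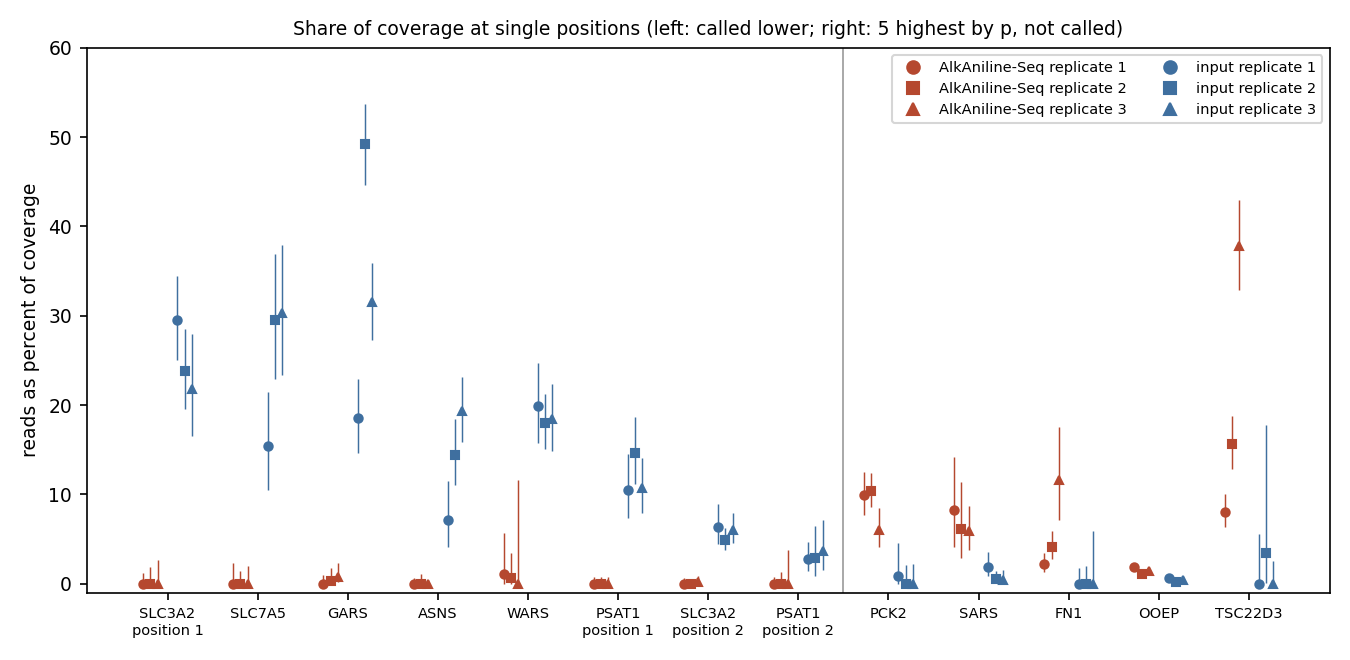
Reads as a percent of coverage at 13 single positions, AlkAniline-Seq in red and input in blue, with a symbol for each replicate and exact 95% binomial intervals as bars. At the 8 positions called lower, left of the line, no AlkAniline-Seq share is above 1.05%. At the 5 positions with the smallest p in the other direction, none of which passed, the AlkAniline-Seq libraries lie above the inputs.

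In read counts rather than shares, 454 positions in 80 named genes were tested and 0 were called in edgeR, with 22 higher and 51 lower at an unadjusted p under 0.05 and 241 above 0. The highest by p were the TSC22D3, FN1 and PCK2 positions already described, a further WARS position and RNF187, a ubiquitin ligase gene, all at an adjusted p of 0.123. The WARS position had 430, 95 and 392 reads in AlkAniline-Seq and 80, 46 and 26 in input, and the RNF187 position 180, 295 and 169 against 33, 24 and 11. The lowest by p were 2 positions of MLST8 and 1 each of DGKQ, KLK2 and HERPUD1, at the same adjusted p of 0.123. The KLK2 position had 0 reads in every AlkAniline-Seq library and 25, 23 and 22 in input. Its coverage was 24, 0 and 1 in AlkAniline-Seq, so it could not enter the test of shares. Of the 629 positions read in every AlkAniline-Seq library and no input, 19 lay in named genes, and of the 8629 positions of the reverse kind 166 did. Both sets include positions whose fold tied a symbol to its gene ID, such as that of ROM1 in the first and of ATP6AP1 in the second. These 2 counts are therefore a description and no independent evidence.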

How the data were processed

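The 6 libraries labelled shMETTL1 were analysed. The authors deposited, for each position, counts of reads, coverage (the signal of reads that span it), a fraction (count over coverage, equal to it at every position within 1e-06) and its ratio over input. The genome build was hg19, and Bowtie2 2.2.4, bedtools 2.24 and cutadapt 1.9.1 are the tools listed in the submitters' processing notes. What each did, the annotation, the strand and the choice of positions were not given in the sources used here. Of 842183 positions, 223770 had no read in these 6 libraries.

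Counts per position, and summed per gene ID, were tested with edgeR 4.0.16 (TMM, quasi-likelihood test, minimum count 10, minimum total 15) in R 4.3.3. Shares were tested with limma 3.58.1 on log2(share + 0.01). Alternatives used DESeq2 1.42.0 and the methods' t-test. CPM follow TMM scaling. The tests were checked on simulated data. Exact permutation tests and intervals used Python 3.11.15 with scipy 1.17.1.

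Gene IDs were named only where the fold in the study's supplement for a gene matched a single position (tolerance 2e-08): 115 of 238 genes. For this match the deposited ratio of the shscramble libraries was read, and it was used in nothing else. The ties could not be checked independently. The position that ties a gene belongs to its reads. Without it, 7 of 113 log2 ratios changed sign, the largest shift being 1.26. GARS and SARS were entered in their list by their current symbols from general knowledge. Members and lists were chosen with earlier results of these data known. Genes named by rule were up to 10 in each direction that passed the adjusted threshold without overlap of CPM, filled up to 5 by smallest p. For positions, up to 5 were named by the same rule, and all called positions for shares.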

Additional observations from a re-analysis of the deposited data

How the results depend on the processing

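Gene counts moved with most choices. From 36 higher and 20 lower gene IDs they went to 200 and 137 in DESeq2, 86 and 48 without the filter, 7 and 0 without each deepest position, 88 and 23 with positions read in place of reads (9 of the 36 and 0 of the 20 among them), 0 and 0 by the methods' t-test after Benjamini-Hochberg and 642 and 692 at its unadjusted threshold. Leaving out 1 library gave 0 to 25 higher and 2 to 25 lower. DESeq2, the missing filter and the replicate block each kept all 56 calls. For single positions, 0 higher and 1 lower became 570 and 1318 in DESeq2, 16 and 49 without the filter, 251 and 1688 by the methods' t-test (adjusted; 912 and 2948 unadjusted), and 0 to 17 and 2 to 55 without 1 library.

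For shares per position, 15 higher and 486 lower became 23 and 854 with a pseudocount of 0.001, 4 and 118 with 0.1, 6 and 295 at a coverage minimum of 50, 76 and 923 at 1, and 15 to 43 and 123 to 1673 without 1 library. For shares per gene ID, 1 lower became 4 with a pseudocount of 0.001, 0 with 0.1 and 0 to 4 without 1 library.

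With the replicate number as a block there were 88 higher and 63 lower gene IDs, 79 and 91 positions, and 0 and 0 positions and 0 gene IDs by share. Libraries of the same number deviated together by correlations of 0.007, -0.002 and 0.015 over gene IDs and 0.083, 0.025 and 0.025 over positions. The highest correlations with another number were 0.005, 0.009 and -0.002 over gene IDs and -0.029, 0.003 and 0.013 over positions. Over positions the same number was higher in every replicate, and the deposited ratio over input is given per replicate number. The main tests did not treat the numbers as pairs, and whether they are pairs was not tested. Of the genes named by the rule, the block added a call for OOEP (log2 fold change -0.85, adjusted p = 0.000101). With positions read in place of reads, the log2 differences of WARS, MLST8 and OOEP reversed to -0.059, 0.13 and 0.79 (adjusted p = 0.928, 0.84 and 0.0169), and without its deepest position OOEP was at 0.41. The cause of these changes was not tested. All 7 library measures kept their sign without any 1 replicate.

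With 3 libraries a group and a coefficient of variation between replicates of 0.831 for gene IDs and 1.30 for positions, small differences could not be detected.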
